A study of Mus musculus with 2 samples.

Results

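The 29 genes described here are expressed by microglia, the resident macrophages of the brain, in their resting or homeostatic state. They were chosen by symbol and make up 29 of the 53717 features of the deposited matrices. The matrices come from single-cell RNA sequencing of the hippocampus of mice labelled 5xFAD, a transgenic model of amyloid deposition that carries human transgenes with familial Alzheimer disease mutations. One library is labelled as coming from mice given AAV9-GFAP::NeuroD1-P2A-GFP, an adeno-associated virus in which a promoter of the astrocyte gene Gfap drives the neuronal transcription factor NeuroD1 together with GFP, and the other from mice given AAV9-GFAP::GFP, the same kind of vector without NeuroD1. Both libraries are labelled 6 months for time and 5xFAD for strain, although the title of the second calls it a control. Tissue was taken 3 weeks after injection from 3 mice per group, and each group is 1 library, so the mice of a group cannot be separated and no difference between the libraries can be tested against a spread between animals.

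The libraries differed in ways that bear on every comparison between them. The library labelled NeuroD1 held 13402 barcodes and 51236521 UMIs (unique molecular identifiers, each a counted RNA molecule), and the GFP library 11739 barcodes and 17504950 UMIs. After filters and doublet removal 12786 and 11079 cells were left, with medians of 2556 and 1168 UMIs, and 99 barcode sequences occurred in both. Xist, transcribed from the inactive X chromosome of females, was at 0.0413 and 103 CPM (UMIs of a gene scaled to the same total in every group of cells; here and below the library labelled NeuroD1 comes first), and the Y-chromosome gene Ddx3y at 69.5 and 0.0618 CPM, so vector, sex and library cannot be told apart. The feature named GFP was at 12.9 and 1563 CPM, mouse Neurod1 was at 7.57 and 5.25 CPM, and the feature named ND1 had 0 UMIs in both. The vector labelled NeuroD1 also carries GFP, so the low GFP feature goes against that label, and the library is therefore called the library labelled NeuroD1. Disease-associated microglia, described below, numbered 2 and 2310 cells although both libraries are labelled 5xFAD, and the genotype was not tested here. Ttr, a choroid plexus transcript, took 12.96% and 2.24% of UMIs.

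Microglia arise from yolk-sac progenitors and keep their identity through signals from the surrounding tissue. Signalling through the CSF1 receptor keeps them alive, and TGF-beta acting on its type I and type II receptors maintains a program that includes the transcription factor Sall1 and surface proteins such as Tmem119. Around amyloid plaques microglia take on a disease-associated state in which many homeostatic genes are reduced while genes of lipid handling and phagocytosis are induced. Border macrophages of the meninges, perivascular spaces and choroid plexus are a separate lineage that shares some of these genes. Papain digestion, the dissociation used here, can itself induce immediate early and cytokine genes in microglia.

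Promoters are shown here for 5 genes at either end of the difference between the libraries described below. Crybb1, Siglece and Bank1 had CPM ratios above 8, whereas Ly86 and Aif1 differed by less than 1.5-fold. Upk1b also had a ratio above 8, and Lag3 and Tgfbr2 also differed by less than 1.5-fold, but their promoters are not shown. Of the 29 genes, 21 had an entry in the RefSeq promoter table, which gives positions on GRCm38.p6. The reads were mapped to mm39, so no position was carried between the builds. Each line gives the 250 bases before the annotated start, 5′ to 3′ on the gene's own strand, with matches to any motif searched in capitals.
Crybb1 (chr5:112255570-112255819, plus strand): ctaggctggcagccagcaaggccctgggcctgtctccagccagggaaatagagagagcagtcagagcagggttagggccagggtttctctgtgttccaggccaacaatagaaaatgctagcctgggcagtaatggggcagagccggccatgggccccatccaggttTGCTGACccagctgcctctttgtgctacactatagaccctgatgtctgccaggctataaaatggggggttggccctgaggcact
Siglece (chr7:43660162-43660411, minus strand): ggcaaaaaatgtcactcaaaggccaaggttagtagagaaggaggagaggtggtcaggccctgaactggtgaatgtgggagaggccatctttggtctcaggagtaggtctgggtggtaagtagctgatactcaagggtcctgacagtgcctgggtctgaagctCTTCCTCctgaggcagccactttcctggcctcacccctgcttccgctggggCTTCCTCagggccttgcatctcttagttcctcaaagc
Bank1 (chr3:136326067-136326316, minus strand): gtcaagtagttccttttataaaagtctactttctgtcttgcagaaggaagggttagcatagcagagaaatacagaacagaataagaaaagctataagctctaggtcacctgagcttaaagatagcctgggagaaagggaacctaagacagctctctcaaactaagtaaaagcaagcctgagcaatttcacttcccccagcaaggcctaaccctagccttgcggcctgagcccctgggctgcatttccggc
Ly86 (chr13:37345095-37345344, plus strand): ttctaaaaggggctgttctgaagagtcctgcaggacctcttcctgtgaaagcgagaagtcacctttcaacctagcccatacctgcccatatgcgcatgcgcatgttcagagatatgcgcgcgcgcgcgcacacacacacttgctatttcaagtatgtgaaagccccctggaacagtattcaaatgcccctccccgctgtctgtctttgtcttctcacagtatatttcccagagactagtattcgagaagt
Aif1 (chr17:35176053-35176302, minus strand): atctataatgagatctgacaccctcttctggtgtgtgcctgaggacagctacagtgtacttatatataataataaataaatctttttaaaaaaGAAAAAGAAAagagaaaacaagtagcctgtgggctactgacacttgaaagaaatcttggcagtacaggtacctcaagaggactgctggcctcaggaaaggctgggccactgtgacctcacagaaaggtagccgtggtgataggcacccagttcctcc
The motifs searched on both strands were GAGGAAG for PU.1, TGANTCA for AP-1, a pair of GAAA repeats with 2 bases between them for interferon regulatory factors, and TGCTGAC for MAF factors. The last letters of the MAF motif can also begin an AP-1 match. The PU.1 letters occurred upstream of 4 of the 21 genes (Fcrls, Itgam, Siglece and Tgfbr2) and in 10.4% of 27025 promoters of the same length, and the Siglece window held 2 copies. The MAF letters occurred in 1 of 21 (Crybb1; 3.72% of all), the interferon regulatory factor letters in 1 of 21 (Aif1; 3.04% of all), and the AP-1 letters in 0 of 21 (6.87% of all). These matches describe the letters in the window and are not evidence of binding.

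The identity genes marked the microglia-like class in both libraries. Cells were clustered without the 29 genes, and classes were named from markers that exclude them. The microglia-like class held 1223 cells in the library labelled NeuroD1 (9.57% of kept cells, median 1811 UMIs) and 3569 cells in the GFP library (32.2%, median 1316 UMIs). Together the 29 genes took 31927 CPM of microglia-like RNA in the library labelled NeuroD1 and 15335 CPM with GFP, against 165 and 512 CPM in oligodendrocyte-like cells, 387 and 839 CPM in astrocyte-like cells and 5277 and 6237 CPM in border macrophage-like cells. Oligodendrocyte-like and astrocyte-like cells thus held a low level that was higher with GFP. T or NK-like cells had more, at 1674 and 2035 CPM, as did fibroblast-like cells, at 957 and 2988 CPM, the last from 28 cells. Border macrophage markers summed to 216 and 161 CPM in microglia-like cells, against 12008 and 15016 CPM in border macrophage-like cells. Of the 29 genes, 28 had their highest CPM in microglia-like cells in the library labelled NeuroD1, among 12 classes of at least 50 cells. In the GFP library 25 did so, among 9 classes. The share of all genes highest in microglia-like cells is not given here, so these counts have no background beside them.

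**Figure D1:**
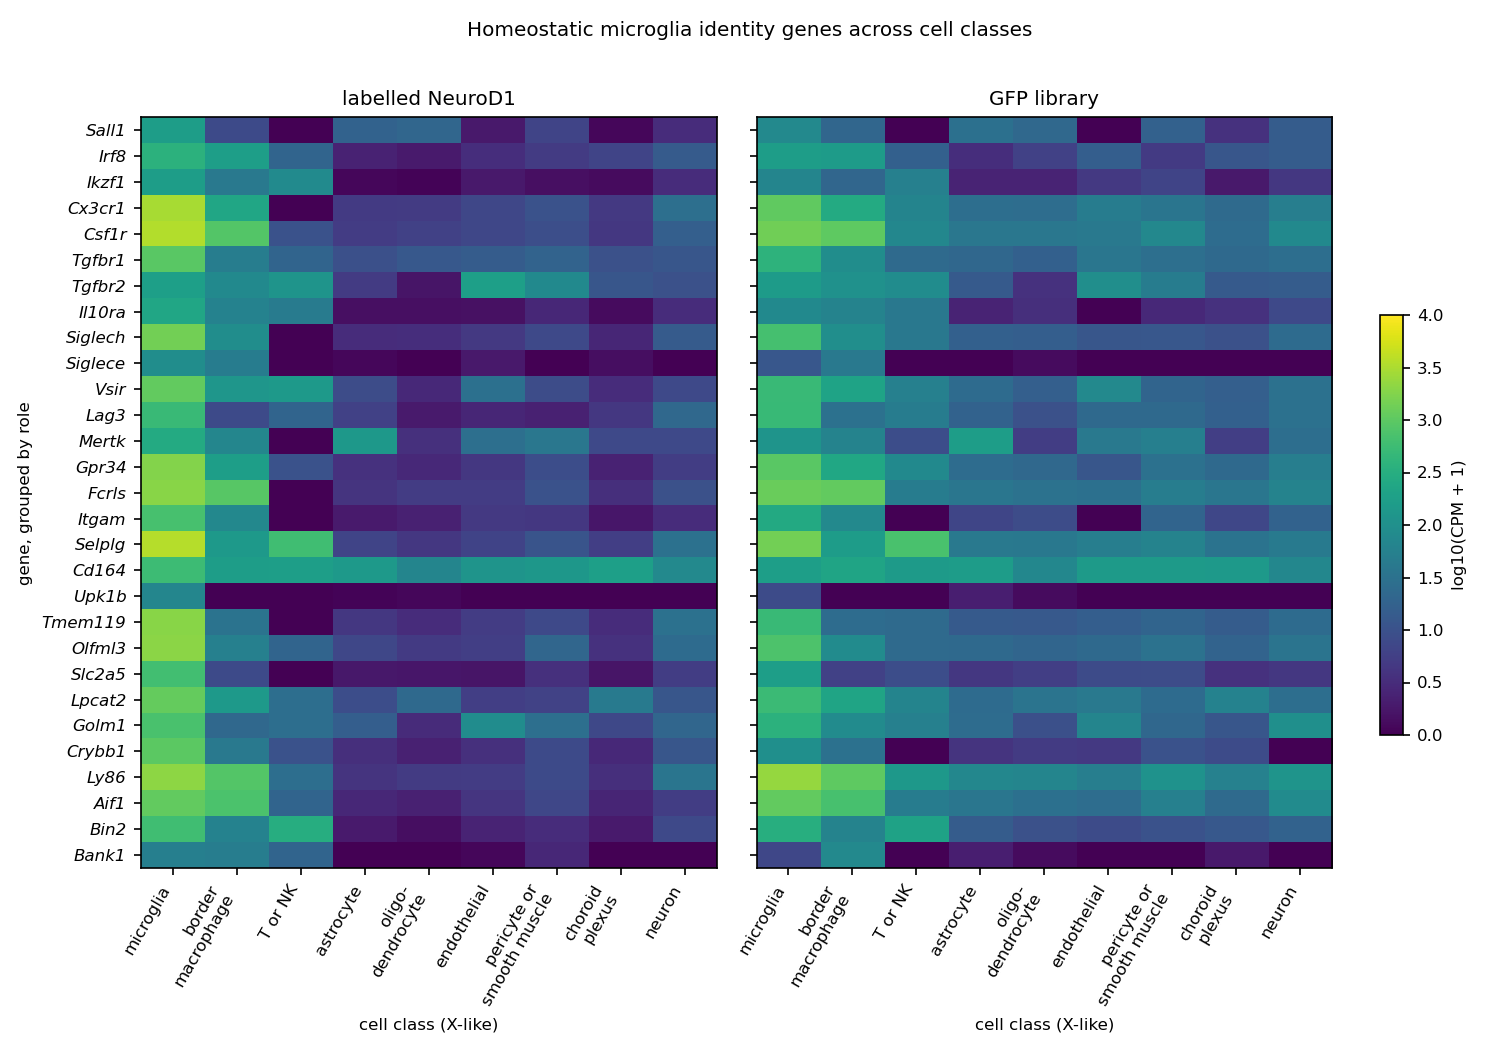
Level of each identity gene, as log10(CPM + 1) of UMIs summed over cells, in 9 cell classes (columns) of the library labelled NeuroD1 (left) and the GFP library (right), with genes in rows grouped by role. The first column holds the highest value for most rows, while Cd164 is spread over all classes, Mertk is also high in astrocyte-like cells and Tgfbr2 in endothelial-like cells.

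Specificity varied among the genes. Tmem119, a small transmembrane protein used as a microglial marker, had 92.0% of its UMIs in microglia-like cells in the library labelled NeuroD1 and 89.0% with GFP. A Tmem119 UMI was seen in 93.4% and 42.3% of microglia-like cells, against 0.731% and 1.63% of oligodendrocyte-like cells (median 2934 and 1276 UMIs). With every cell thinned to 500 UMIs, the microglia-like shares became 60.7% and 22.3%. Tmem119 was also seen in fibroblast-like cells, at 134 and 274 CPM, from 43 UMIs in 118 cells and 12 UMIs in 28 cells. Border macrophage-like cells had less, at 32.9 and 24.9 CPM. Slc2a5, the fructose transporter GLUT5, had 95.2% and 88.9% of its UMIs in microglia-like cells.

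Some members were shared with other lineages. Mertk, a receptor tyrosine kinase for the engulfment of apoptotic cells, was at 281 and 118 CPM in microglia-like cells and at 136 and 166 CPM in astrocyte-like cells, so that the order of these classes differed between the libraries. Tgfbr2, the ligand-binding TGF-beta receptor, stood at 183 CPM in endothelial-like cells of the library labelled NeuroD1 (95% interval 172 to 194; intervals here and below cover counting error only) and 177 CPM (161 to 195) in microglia-like cells, and these intervals overlapped. Cd164, a widely expressed sialomucin, had 18.6% and 41.9% of its UMIs in microglia-like cells, the lowest share in either library. Sall1 was also seen in glia, at 20.2 and 21.3 CPM in oligodendrocyte-like and 16.9 and 29.1 CPM in astrocyte-like cells, where microglia-like cells had 169 and 74.2 CPM. Selplg, the P-selectin ligand PSGL-1, was also seen in T or NK-like cells, at 582 and 710 CPM. Bin2, a membrane-curving BAR-domain protein of leukocytes, was at 309 and 203 CPM there. Olfml3 was also seen in fibroblast-like cells, at 377 and 342 CPM (121 and 15 UMIs), where microglia-like cells had 2044 and 775 CPM. Upk1b was at 34.3 and 45.6 CPM in fibroblast-like cells, from 11 and 2 UMIs, and at 67.1 and 7.12 CPM in microglia-like cells.

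Within the microglia-like class 5 states were distinguished by genes other than the 29: a homeostatic state led by P2ry13 and P2ry12 with 544 cells in the library labelled NeuroD1 and 514 in the GFP library, a cytokine state led by Il1a and Tnf with 667 and 119 cells, a cytokine state led by Il1b with 10 and 557 cells, a disease-associated state led by Cst7 and Lpl with 2 and 2310 cells, and an interferon-responding state led by Ifit2 and Ifit3 with 0 and 69 cells. Only the homeostatic state and the Il1a-led state held 50 or more cells in both libraries. A further cluster of 5 and 629 cells had microglial markers together with neuronal leading genes such as Kif5a and Rab3c. It was left out of the class, under a rule set after its genes were seen.

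In the GFP library the identity genes were lower in the disease-associated state than in the homeostatic state. Of the 29 genes, 24 were at least 1.5-fold lower and 0 at least 1.5-fold higher, with a median log2 CPM ratio of -1.25, against a median of -0.28 over all 9823 genes with 20 or more UMIs in both sums together. Over all those genes 30.7% were lower and 14.7% higher by that fold. These sums come from 1 library and from clusters of the same cells, so the values describe how the states differ and carry no test. Ribosomal protein genes had a median log2 ratio of 0.51 in the same contrast. Their part in the lower CPM of the identity genes was not tested.

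Bank1, a scaffold adaptor best known from B cells, had the largest difference: 2 UMIs in disease-associated cells (0.560 CPM) and 24 in homeostatic cells (49.98 CPM), a ratio of 0.0112 with an interval of 0.00128 to 0.0452. Tmem119 was at 379 CPM in disease-associated and 1955 CPM in homeostatic cells, 5.15-fold lower (4.74 to 5.61). Siglece, an inhibitory receptor for sialic acid, was at 9.25 and 41.7 CPM, Upk1b, a tetraspanin of the uroplakin family, at 5.04 and 22.9 CPM, and Crybb1, a beta-crystallin, at 68.4 and 296 CPM. These 5 genes had the largest fold differences of the 29, although Upk1b rested on 18 and 11 UMIs.

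The receptors for growth and tissue signals were intermediate. Cx3cr1, the receptor for the neuronal chemokine fractalkine, was at 942 CPM in disease-associated and 2599 CPM in homeostatic cells, 2.76-fold lower (2.58 to 2.95). Csf1r, the receptor for CSF1 and IL-34, was 2.29-fold lower (2.16 to 2.44), and Tgfbr1, the signalling TGF-beta receptor, 2.61-fold lower (2.33 to 2.93). Tgfbr2 was at 167 and 181 CPM, a ratio whose interval of 0.735 to 1.17 included 1. The transcription factor Sall1 was 2.38-fold lower (1.82 to 3.08), whereas Irf8, a factor needed for the macrophage lineage, was at 172 and 219 CPM and within 1.5-fold.

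The remaining 5 members were within 1.5-fold between these states: Tgfbr2, Irf8, Fcrls, Aif1 and Ly86. Aif1 encodes IBA1, the actin-binding protein used to stain microglia, and was at 1100 CPM in disease-associated and 1239 CPM in homeostatic cells. Ly86, also called MD-1, is the secreted partner of the Toll-like receptor homologue RP105, and was at 2473 and 2222 CPM, the only member with a higher point value in the disease-associated state. Fcrls, a scavenger-type member of the Fc receptor-like family, was at 1159 and 1712 CPM.

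The Il1b-led and interferon-responding states of the GFP library had similar sizes of difference from the homeostatic state. In the Il1b-led state 25 of 28 tested members were at least 1.5-fold lower and 0 higher (32.0% and 14.5% of 7237 genes), with a median of -1.32 against -0.24 over all genes. This state also had all 18 disease-associated markers at least 1.5-fold higher than the homeostatic state. In the interferon-responding state 22 of 28 were lower and 0 higher (36.6% and 16.0% of 4329 genes), with a median of -1.27 against -0.17, or -1.17 with Bank1 and Siglece, which had 0 UMIs there, set to the 3-UMI floor. Upk1b had under 20 UMIs in both comparisons. Irf8 and Aif1 had their highest values of the 5 states in interferon-responding cells, at 281 and 1423 CPM, but the intervals of their ratios are set by only 69 cells. The comparisons share the homeostatic cells of the GFP library, so their likeness is not independent.

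The Il1a-led cytokine state had most of the identity genes within 1.5-fold of the homeostatic state. In the library labelled NeuroD1 7 of 29 were at least 1.5-fold lower than in the homeostatic state and 0 higher (18.4% and 10.1% of 8998 genes), with a median of -0.34 against -0.16. In the GFP library 6 of 28 were lower and 2 higher (23.3% and 15.5% of 4761 genes), with a median of -0.36 against -0.10. Sall1 was at 131 CPM in the Il1a-led and 259 CPM in the homeostatic state of the library labelled NeuroD1, and Tmem119 at 1623 and 2726 CPM. Ikzf1, the lymphoid and myeloid factor Ikaros, and Il10ra, the ligand-binding chain of the IL-10 receptor, had higher point values in the Il1a-led state of both libraries. Ikzf1 was at 185 and 133 CPM in the library labelled NeuroD1 (ratio 1.39, 1.11 to 1.74) and 193 and 97.9 CPM in the GFP library (1.97, 1.22 to 3.14), while Il10ra was within 1.5-fold in both. The other gene called higher in the GFP library was Crybb1, at 479 and 296 CPM (1.62, 1.22 to 2.14). In the same contrast immediate early genes had medians of 1.78 and 1.33. The part of tissue dissociation in this state was not tested.

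**Figure D2:**
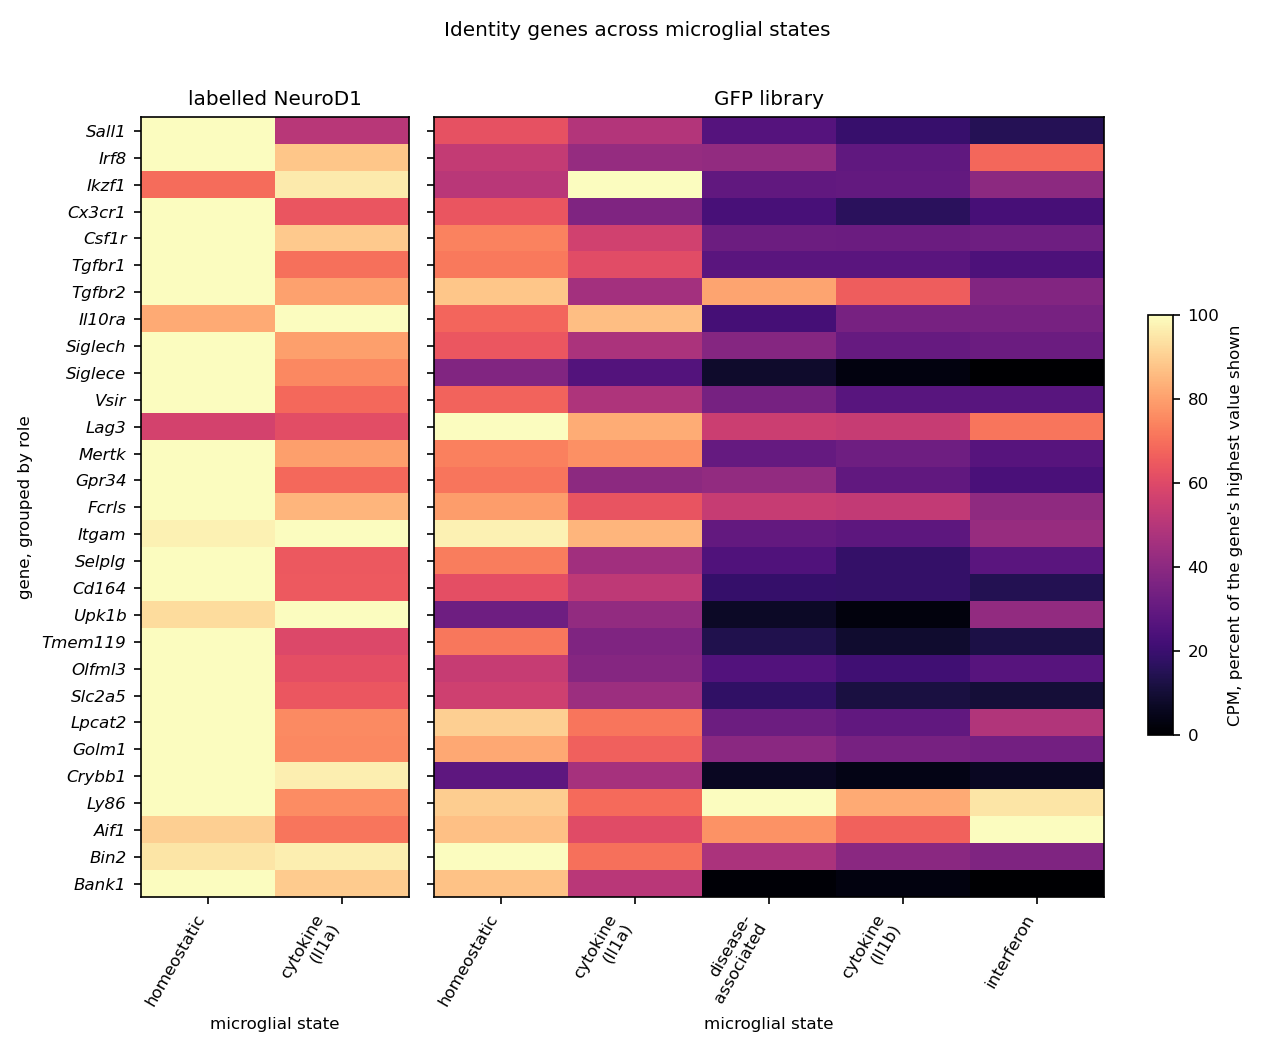
CPM of each identity gene in 2 microglial states of the library labelled NeuroD1 (left) and 5 states of the GFP library (right), as a percentage of the gene's highest value among the 7 columns. In the disease-associated, Il1b-led and interferon-responding columns most rows are dark, while Ly86, Aif1 and Tgfbr2 stay closer to their highest value in the disease-associated column.

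Between the libraries, the identity genes were higher in microglia-like cells of the library labelled NeuroD1, a direction that rests on a label the GFP feature goes against. Of the 29 genes, 25 were higher by 1.5-fold or more and 0 lower, with a median log2 CPM ratio of 1.28 against 0.34 over all 11629 genes tested. Over all genes 36.3% were higher and 16.3% lower by that fold. Scaling the libraries by their median gene ratio moved the median of all genes to -0.05 and that of the members to 0.88. Under that scaling 21 members were higher and 0 lower, and the shares of all genes called under it are not given here. The mix of states differed between the libraries at the same time, as given above, and disease-associated markers were lower in the library labelled NeuroD1 for 17 of 18 genes (median -3.66). Weighting the homeostatic and Il1a-led states equally in both libraries left 9 members higher and 1 lower, with a median of 0.43. The share of all genes under that weighting is not given here. Within the homeostatic state 24.5% of all genes tested were higher and 13.1% lower, and within the Il1a-led state 25.6% and 17.0%.

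By role, all 3 transcription factors were higher in the class, where 36.3% of all genes tested were higher. The counts by role below stand against that share. Sall1, a zinc-finger factor needed for microglial identity, was at 169 CPM in the library labelled NeuroD1 and 74.2 CPM in the GFP library (ratio 2.28, 1.99 to 2.62). Irf8 was at 375 and 167 CPM, and Ikzf1 at 167 and 65.2 CPM. In homeostatic cells alone Sall1 was at 259 and 162 CPM (1.60, 1.22 to 2.10), Irf8 at 412 and 219 CPM (1.88, 1.51 to 2.37), and Ikzf1 at 133 and 97.9 CPM (1.36, 0.957 to 1.97), so that the interval of Ikzf1 included 1.

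Of the 5 chemokine, growth factor and cytokine receptors 4 were higher in the class. Cx3cr1 was at 3022 and 1046 CPM, with a UMI in 98.1% and 69.2% of cells. Csf1r was at 3458 and 1381 CPM (2.50, 2.43 to 2.58), Tgfbr1 at 936 and 385 CPM, and Il10ra at 233 and 78.2 CPM. Tgfbr2 was at 177 and 158 CPM, within 1.5-fold in the class, but at 165 and 93.4 CPM in Il1a-led cells (1.77, 1.07 to 3.14, from 279 and 16 UMIs). Within the homeostatic state only Cx3cr1 of the 5 stayed past 1.5-fold, at 4058 and 2599 CPM (1.56, 1.46 to 1.67). Csf1r was at 3780 and 2793 CPM there (1.35, 1.27 to 1.45) and at 3360 and 2136 CPM in Il1a-led cells (1.57, 1.42 to 1.75). In homeostatic cells Tgfbr1 was at 1187 and 854 CPM and Il10ra at 205 and 169 CPM.

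Of the 7 inhibitory and phagocytic receptors 6 were higher. Siglece was at 91.7 and 11.3 CPM (8.10, 6.10 to 10.9) and remained 2.68-fold higher (1.64 to 4.61) in homeostatic cells, from 88 and 20 UMIs. Siglech, a sialic acid receptor that pairs with the adaptor DAP12, was at 1422 and 656 CPM in the class and 1666 and 1068 CPM in homeostatic cells. Vsir, the checkpoint protein VISTA, was at 1106 and 515 CPM in the class and 1421 and 956 CPM in homeostatic cells, a ratio of 1.49, just under the threshold. Mertk, Gpr34, a receptor for lysophosphatidylserine, and Fcrls were higher in the class with ratios of 2.38, 1.89 and 1.60 and within 1.5-fold in homeostatic cells.

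Lag3, an inhibitory receptor that binds MHC class II, differed from the other receptors. It was at 511 CPM in the library labelled NeuroD1 and 490 CPM in the GFP library over the class. In homeostatic cells it was at 467 and 814 CPM, 1.74-fold lower in the library labelled NeuroD1 (1.51 to 2.01), and it was the only member at least 1.5-fold lower in any of the 3 comparisons (class, homeostatic and Il1a-led). In Il1a-led cells it was at 501 and 671 CPM, 1.34-fold lower (1.09 to 1.63).

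All 5 adhesion and surface glycoproteins were higher in the class. Tmem119 was at 1948 and 508 CPM (3.83, 3.66 to 4.02), but in homeostatic cells at 2726 and 1955 CPM (1.39, 1.29 to 1.51) and in Il1a-led cells at 1623 and 1004 CPM (1.62, 1.39 to 1.90). Upk1b was at 67.1 and 7.12 CPM, with a UMI in 10.9% and 0.869% of cells, and in homeostatic cells at 64.8 and 22.9 CPM from 51 and 11 UMIs (2.83, 1.46 to 6.02). Itgam, the CD11b chain of complement receptor 3, was at 692 and 264 CPM in the class and at 686 and 687 CPM in homeostatic cells. Itgam therefore differed 2.62-fold over the class and by a ratio of 0.998 (0.869 to 1.15) within the homeostatic state. Selplg was at 3637 and 1391 CPM in the class and Cd164 at 548 and 172 CPM. In homeostatic cells Selplg was at 4866 and 3546 CPM (1.372, 1.295 to 1.453) and Cd164 at 726.5 and 449.8 CPM (1.615, 1.379 to 1.898).

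Of the 6 secreted, metabolic and transport proteins 5 were higher. Crybb1 had the largest ratio of all 29 genes, at 996 and 95.9 CPM (10.4, 9.46 to 11.4), with a UMI in 70.0% and 10.7% of cells, or 36.5% and 4.93% after thinning to 500 UMIs. It ranked 18th from the highest among the 11629 genes tested. It was 3.50-fold higher (2.92 to 4.21) in homeostatic cells and 2.09-fold higher (1.67 to 2.64) in Il1a-led cells, so the ratio was smaller in each state than in the class and its intervals excluded 1. Olfml3, a secreted olfactomedin-like protein, was at 2044 and 775 CPM in the class and 2799 and 1516 CPM in homeostatic cells, and Slc2a5 at 623 and 171 CPM and 837 and 469 CPM. Lpcat2, an enzyme that makes platelet-activating factor, and Golm1, a Golgi membrane protein, were 2.15-fold and 1.90-fold higher in the class and within 1.5-fold in homeostatic cells. Ly86 was at 2092 and 2334 CPM in the class, a ratio of 0.896 (0.868 to 0.926).

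Of the 3 signalling and cytoskeletal proteins Bank1 was at 52.4 and 6.03 CPM (8.69, 5.90 to 13.2) in the class but at 57.2 and 49.98 CPM (1.14, 0.682 to 1.96) in homeostatic cells. Bin2 was at 600 and 321 CPM in the class and 598 and 631 CPM in homeostatic cells. Aif1 was at 1095 and 1080 CPM in the class and 1279 and 1239 CPM in homeostatic cells, and neither ratio reached 1.5-fold. For Bank1 and Bin2 the ratio in the homeostatic state was thus within 1.5-fold, unlike that over the class.

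In the homeostatic state as a whole 10 of 29 members were at least 1.5-fold higher in the library labelled NeuroD1 and 1 lower (24.5% and 13.1% of 7261 genes), with a median of 0.46 against 0.16. In the Il1a-led state 12 were higher and 0 lower (25.6% and 17.0% of 8115 genes), with a median of 0.51 against 0.04. The 7 genes higher in the class and in both states were Cx3cr1, Siglech, Olfml3, Crybb1, Upk1b, Siglece and Irf8. Another 15 were higher in the class but not in the homeostatic state, among them Tmem119, Csf1r, Selplg, Itgam and Bank1. The class, the homeostatic and the Il1a-led comparisons share cells, so these counts overlap by construction. The share of all genes that meets each joint rule is not given here, so the counts of 7 and 15 have no background beside them. Ribosomal protein genes were lower in the library labelled NeuroD1 in the class and in the homeostatic state (medians -1.41 and -1.23), as were mitochondrially encoded genes (-1.67 and -1.21) and interferon-responding markers (-2.46 and -2.22). Immediate early genes were higher in the class (1.31) and less so in the homeostatic state (0.36). Some disease-associated markers also differed within the homeostatic state, with Cst7 at 17.8 and 127 CPM, Axl at 7.62 and 41.7 CPM and Apoe at 1850 and 3453 CPM. Ctsb and Cd63 were within 1.5-fold there, and Fabp5 was higher, at 25.4 and 10.4 CPM (20 and 5 UMIs). Homeostatic cells had medians of 1354.5 and 800.5 UMIs. The part of these shifts in the ratios of the identity genes was not tested.

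**Figure D3:**
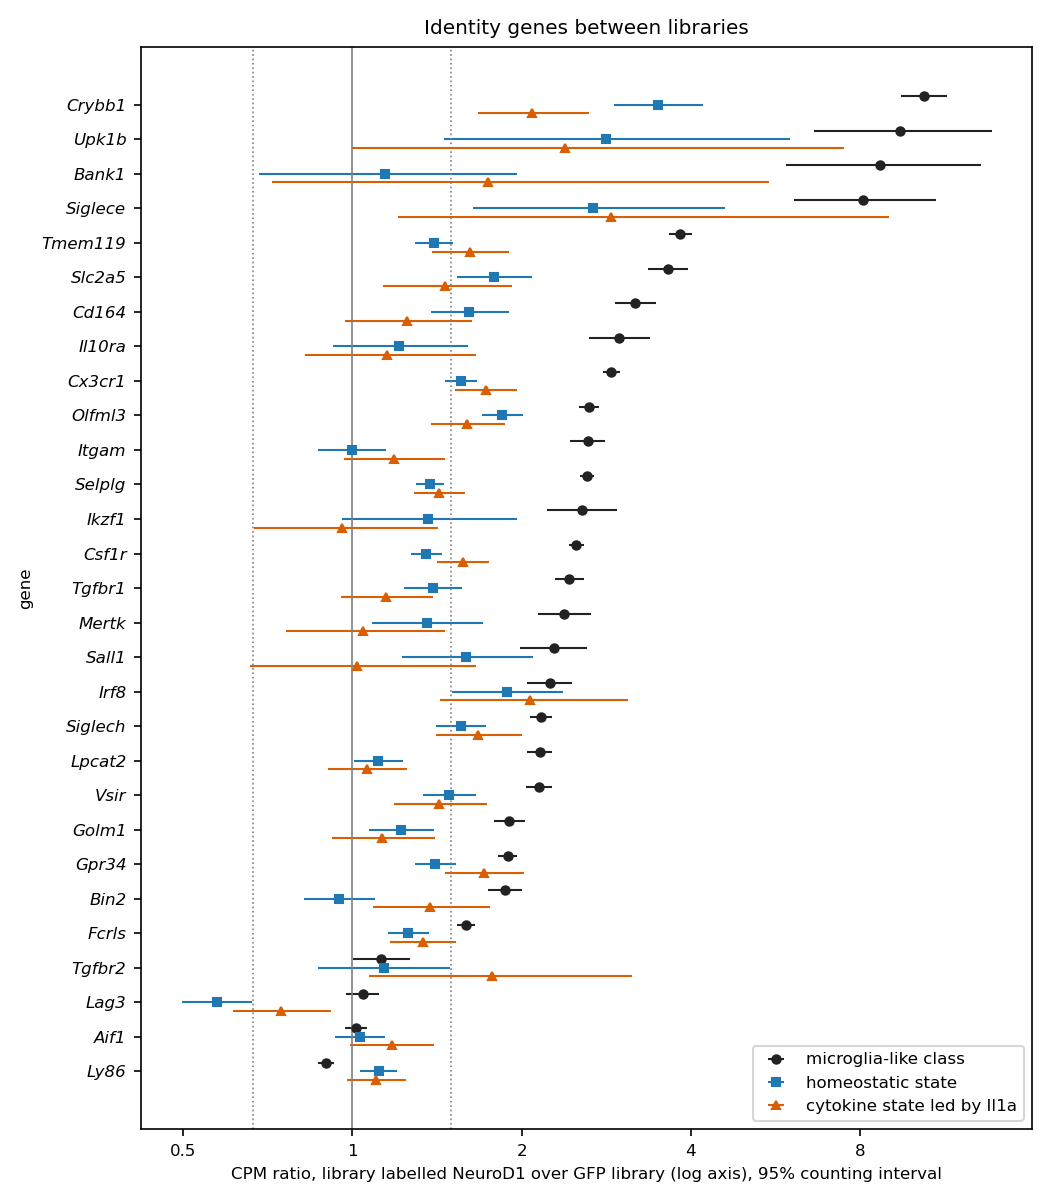
CPM ratio of each identity gene between the library labelled NeuroD1 and the GFP library on a log axis, in the whole microglia-like class (black circles), the homeostatic state (blue squares) and the Il1a-led cytokine state (orange triangles), with 95% counting intervals as bars and dotted lines at 1.5-fold. Class ratios reach 10.4 for Crybb1, the state ratios of the 25 genes called higher in the class lie left of their class ratios, and Lag3 in the homeostatic state is the only point left of the lower dotted line.

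Against border macrophage-like cells the identity genes were higher in microglia-like cells, by more in the library labelled NeuroD1. Border macrophage-like cells numbered 165 in the library labelled NeuroD1 (median 2411 UMIs) and 157 in the GFP library (median 1109 UMIs). In the library labelled NeuroD1 27 of 29 members were at least 1.5-fold higher in microglia-like cells and 0 lower (33.4% and 17.6% of 9536 genes), with a median log2 ratio of 3.23 against 0.12. In the GFP library 21 were higher and 2 lower (19.7% and 25.2% of 10732 genes), with a median of 1.54 against -0.13. Of the 29 members 20 were higher in both libraries, and the share of all genes higher in both is not given here. Using homeostatic cells only, 28 of 29 were higher in the library labelled NeuroD1 (35.7% of 7254 genes) and 25 of 28 in the GFP library (30.3% of 4912 genes), with medians of 3.32 (3.31 with Upk1b at its floor) and 2.62, against 0.21 and 0.08 over all genes.

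Slc2a5 had the largest ratio in both libraries, followed by Lag3 in the library labelled NeuroD1 (72.5, 24.8 to 352, from 3 UMIs in border macrophage-like cells) and by Tmem119 in the GFP library. Slc2a5 was at 623 CPM in microglia-like and 7.04 CPM in border macrophage-like cells of the library labelled NeuroD1 (3 UMIs; ratio 88.4, 30.2 to 429), and at 171 and 4.99 CPM in the GFP library (1 UMI; 34.3, 6.15 to 1357). Tmem119 was at 1948 and 32.9 CPM (59.3, 35.3 to 109) and at 508 and 24.9 CPM (20.4, 8.72 to 62.8). Upk1b had 0 UMIs in border macrophage-like cells of both libraries; against the floor of 3 UMIs per library it was at least 9.53-fold higher in microglia-like cells of the library labelled NeuroD1, while its 7.12 CPM with GFP was under that floor.

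Several members were shared with border macrophages. Aif1 was at 1095 and 732 CPM in the library labelled NeuroD1 (1.495, 1.33 to 1.69, just under the threshold) and at 1080 and 678 CPM in the GFP library (1.59, 1.34 to 1.90). Fcrls was at 1203 and 1107 CPM in the GFP library (1.09, 0.951 to 1.25). Csf1r, Il10ra, Irf8 and Cd164 (172 and 219 CPM) were also within 1.5-fold there. All of these except Aif1 were called higher in microglia-like cells of the library labelled NeuroD1. Against homeostatic cells of the GFP library, only Irf8 among them stayed within 1.5-fold. Bank1 was at 52.4 and 49.3 CPM in the library labelled NeuroD1 and at 6.03 and 74.8 CPM with GFP, 12.4-fold lower in microglia-like cells there (6.26 to 23.5). Siglece was 1.95-fold higher in microglia-like cells of the library labelled NeuroD1 (91.7 and 47.0 CPM) and 3.52-fold lower in those of the GFP library (11.3 and 39.9 CPM), the only member called in opposite directions. With homeostatic cells in place of the class, the GFP library had Bank1 at 49.98 CPM (ratio 0.668, 0.337 to 1.37) and Siglece at 41.7 CPM (1.04, 0.441 to 2.74), and both intervals included 1.

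In border macrophage-like cells most members were within 1.5-fold between the libraries. Of 24 members with enough UMIs, 1 was at least 1.5-fold higher in the library labelled NeuroD1 (Ikzf1, from 17 and 4 UMIs) and 6 were lower, where 21.1% and 18.3% of 4456 genes were higher and lower. The median was -0.24 against -0.04 over all genes, while immediate early genes had a median of 0.87 in the same cells. Csf1r was at 855 and 1007 CPM in these cells, Cx3cr1 at 232 and 279 CPM, and Vsir at 124 and 209 CPM (1.68-fold lower, 1.10 to 2.57). Tmem119, Sall1, Slc2a5, Lag3 and Upk1b had too few UMIs for a ratio. Whether the difference between libraries was larger in microglia-like than in border macrophage-like cells was not tested, since each value rests on 1 library.

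**Figure D4:**
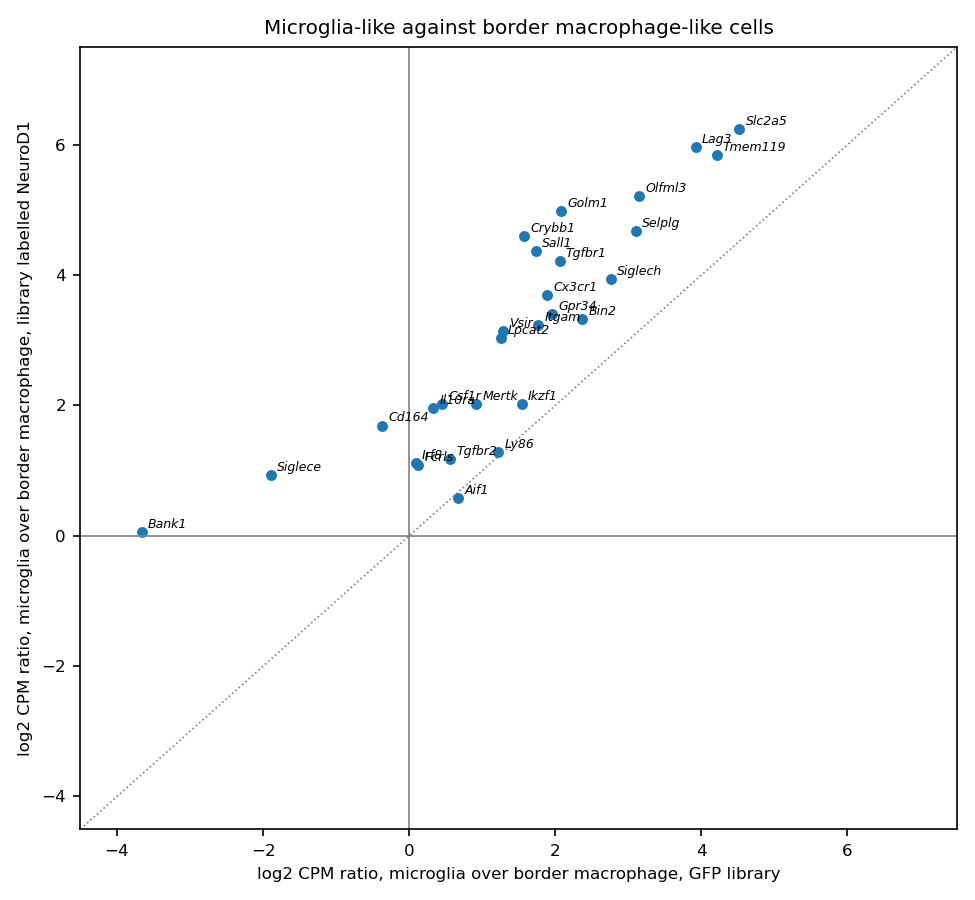
Log2 CPM ratio of microglia-like over border macrophage-like cells in the GFP library (horizontal axis) and the library labelled NeuroD1 (vertical axis), 1 point per identity gene, with the dotted line marking equal ratios; Upk1b, with 0 UMIs in border macrophage-like cells, is left out. Nearly all points lie above the dotted line, Aif1 just below it, and Bank1, Siglece and Cd164 lie left of 0.

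Other genes of the same programs were read from lists that hold none of the 29. In microglia-like cells 36.3% of all genes were higher and 16.3% lower in the library labelled NeuroD1, with a median of 0.34, and the counts of the lists stand against those values. Of 27 further homeostatic genes 19 were higher by 1.5-fold or more and 2 lower, with a median of 1.21. Among the highest ratios were those of Ecscr (401 and 98.8 CPM) and the purinergic receptor P2ry13 (840 and 223 CPM). The lowest belonged to Serpine2, a protease inhibitor (642 and 1932 CPM), Trem2, a lipid-sensing receptor of the disease-associated program (1346 and 2637 CPM), and the protease gene Ctss (9020 and 10901 CPM, within 1.5-fold). In homeostatic cells 9 of the 27 were higher and 0 lower, with a median of 0.36, where 24.5% and 13.1% of all genes were, with a median of 0.16. Some of these genes also serve as markers of the homeostatic state, so they are not independent of how the states were named.

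Of 19 myeloid transcription factors tested 13 were higher and 1 lower (median 1.05), against 36.3% and 16.3% of all genes (median 0.34). Fos, an immediate early gene, was at 1325 and 373 CPM, Cebpa at 249 and 75.6 CPM and Maf at 578 and 198 CPM, while Bhlhe40 was at 4.37 and 25.9 CPM, and Cebpb and Mef2c were within 1.5-fold. Of 17 genes of TGF-beta signalling 11 were higher and 1 lower (median 0.81), against the same shares. The ubiquitin ligase gene Smurf2 (23.0 and 6.94 CPM), the co-receptor gene Eng (89.3 and 29.6 CPM) and the signal transducer gene Smad3 (39.3 and 14.6 CPM) had the highest ratios. Ltbp3, which encodes a protein that holds latent TGF-beta in the matrix, was at 0.397 and 3.65 CPM, and Smad4 and Itgb8 were within 1.5-fold.

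Of 11 genes of CSF1 receptor, IL-34 and IL-10 signalling 7 were higher and 1 lower (median 1.02), against 36.3% and 16.3% of all genes (median 0.34). The kinase gene Syk was at 93.3 and 33.1 CPM, the cytokine signalling inhibitor gene Socs3 at 616 and 245 CPM and the phosphatase gene Inpp5d at 326 and 151 CPM. Tyrobp, which encodes the adaptor DAP12, was at 3323 and 6719 CPM, 2.02-fold lower, and Csf1 and Stat3 were within 1.5-fold. Of 10 ligands and partners of the members 1 was higher and 1 lower (median 0.24), against the same shares and median. Icam1, a ligand of the integrin that contains CD11b, was at 322 and 153 CPM. The others named by the same rule, Ly96, Cd200, Cd180 and Tyro3, were within 1.5-fold. Axl, a relative of Mertk induced in disease-associated microglia, was at 5.16 and 155 CPM, 29.9-fold lower in the library labelled NeuroD1.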

How the data were processed

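The 2 single-cell count matrices analysed were 1 per group. Per the submitters' processing notes the tools were FastQC, fastp, cutadapt, STAR and featureCounts with genome build mm39; versions and annotation release are not given in the sources used here. Per the labels' protocols cells were isolated on a SCOPE-chip microwell device, while the description field names 10x Genomics. The deposited values are whole-number UMI counts per gene and barcode, with at least 500 UMIs per barcode.

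Cells with fewer than 200 genes or over 20% mitochondrial UMIs were removed (131 in the library labelled NeuroD1 and 104 in the GFP library), as were doublets called by Scrublet (485 and 556, 3.66% and 4.78%). Counts were scaled to 10000 per cell and log-transformed, and both libraries were clustered together in scanpy 1.11.5 (3000 variable genes without the 29 members, 30 principal components, 15 neighbours, Leiden resolution 1.0), giving 29 clusters. A cluster took a class or state name from markers that exclude the members and needed at least 3 of them. A myeloid cluster stayed unnamed when 3 or more of its 10 leading genes were at least as high in neuron-like cells, a rule set after seeing the data. From a cluster with cell-cycle and immature neuron genes, cells with at least 10 UMIs of microglial markers were set apart. Only classes of at least 50 cells were ranked.

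UMIs were summed per class and library and given as CPM. Intervals are 95% exact Poisson intervals for levels and exact conditional binomial intervals for ratios. They cover counting error only, and shares of cells carry no other error. A gene was called higher or lower at 1.5-fold when it had at least 20 UMIs in both sums together. A side with 0 UMIs was set to a floor of 3. Log2 ratios added 0.5 UMIs to each sum. The interval and ratio script was tested on simulated data. With 1 library per group no test between groups was possible. Itgam occurs as 2 features, and the one used holds all but 1 UMI. Every member reached 20 UMIs in the microglia-like class, so all 29 are described, and of each further list the 3 highest and 3 lowest ratios in that class are named. A result that this rule would name is not reported here. The members and lists were chosen with earlier results of these data known. The alternatives concerned clustering, cell filters, thinning, scaling, the UMI minimum, free RNA and the mix of states.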

Additional observations from a re-analysis of the deposited data

How the results depend on the processing

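Of the counts over the members, the one in the class differed by more than 1.5 times from the reported count under 1 setting, and the median in the class lay below 1.17 under 3. Weighting the 2 states held by both libraries equally gave 9 members higher and 1 lower in the library labelled NeuroD1, with a median log2 ratio of 0.43. The share of all genes under that weighting is not given here. Scaling by the median gene ratio gave a median of 0.88, and leaving out the disease-associated state, chosen after seeing the data, gave 0.99. Under the other alternatives the median in the class ranged from 1.17 to 1.43. The count in the homeostatic state ranged from 8 to 15, the highest with the members kept among the variable genes, and the count lower in disease-associated cells from 21 to 25. The count higher than in border macrophage-like cells in both libraries ranged from 19 to 21. The shares of all genes under these alternatives are not given here, so the ranges of counts have no background beside them. With the reported settings 24.5% of all genes tested were higher in the homeostatic state. Of 493 gene and setting pairs 322 stayed within the counting interval, 171 moved and 0 reversed. At clustering resolution 0.5 no cluster took the homeostatic name, so the state results have no value there. No paired analysis was possible because each group is 1 library, and leaving out a replicate could not be done for the same reason. Depth limits Bank1, Siglece and Upk1b most, with 33, 62 and 39 UMIs in microglia-like cells of the GFP library.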

Other observations

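Some cells of a cluster with cell-cycle genes also carried the identity genes. A cluster led by Top2a, Mki67 and immature neuron genes held 149 cells of the library labelled NeuroD1 and 89 of the GFP library, and 31 and 54 of these had at least 10 UMIs of microglial markers. Only 1 and 13 cells lay near that limit, between 5 and 19 UMIs. In the cells set apart the 29 genes together took 28980 and 14694 CPM, against 31927 and 15335 CPM in the microglia-like class. The other 118 and 35 cells of the cluster held 278.5 and 483.9 CPM. Microglial markers picked the cells set apart, so a level near that of the class is no separate evidence of what they are. Tmem119 was at 1849 CPM (209 UMIs) and 555 CPM (74 UMIs), and Selplg at 4609 and 1813 CPM. Crybb1 was at 531 CPM in the library labelled NeuroD1, from 60 UMIs, against 996 CPM in the class. Siglece and Bank1 had 2 and 1 UMIs in the library labelled NeuroD1 and 0 with GFP. The part of doublets in these cells was not tested.

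In the cluster left out for its neuronal genes, 629 cells of the GFP library with a median of 785 UMIs, the 29 genes took 10320 CPM. Ly86 was at 1879 CPM and Aif1 at 1076 CPM there, while Tmem119 was at 197 CPM and Cx3cr1 at 706 CPM.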
